A study of Mus musculus with 18 samples.

Results

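The Platr transcripts, named as pluripotency-associated transcripts, are a set of mostly long noncoding RNAs of mouse embryonic stem (ES) cells. Here they were taken as every gene of the count table whose GRCm38 symbol starts with Platr and that had at least 10 counts summed over the 18 samples. Of 30 genes with such a symbol, 29 met the rule, among 49671 genes in the table. Platr32, with 14 counts in all, was the member nearest to the limit, and Platr30 was left out with 0 counts. Platr17 and Platr25 are annotated as protein-coding, Platr17 being listed by RefSeq as Smim40, and the other members as noncoding transcripts.

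Long noncoding RNAs are transcribed, spliced and often polyadenylated like messenger RNAs, but their function does not rest on a protein product. Several act on the genes around them or on chromatin, whereas for many no function is known. The Platr genes received their name because their RNA is abundant in ES cells and declines when the cells differentiate. Platr14 and Platr4 have been linked to the control of differentiation genes, and for most of the others no role is established. Naive pluripotency, the state of the preimplantation epiblast, is held in culture by inhibiting the kinases GSK3 and MEK, and the nuclear receptor Esrrb is one of its transcription factors downstream of Wnt/β-catenin.

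Wild-type E14 ES cells at passage 20 were kept in 3D culture in matrigel for 48 h, with 3 samples in each of 4 conditions. DMSO was the solvent control, and CH was the GSK3 inhibitor CHIR99021 at 3 µM. The 2i cultures combined CHIR99021 at 3 µM with 0.4 µM of PD0325901, which inhibits MEK, whereas the Fgf2/Activin cultures received 12 ng/ml of Fgf2 with 20 ng/ml of Activin A. A further 6 samples came from an Esrrb fl/fl line at passage 25, derived from Acr-EGFP transgenic mice and carrying the tamoxifen-inducible Cre recombinase MerCreMer. All 6 were cultured in 3D for 24 h with CHIR99021 at 3 µM, and 3 of them had been exposed to 500 nM 4-hydroxytamoxifen (4OHT) for 1 day beforehand to delete Esrrb. Before 3D culture every line had been maintained in 2i with Lif. The labels do not say whether the 3 samples of a group were separate cultures, so the p-values measure the spread between these samples, which may be technical. The Esrrb comparison rests on 1 line, without a 4OHT-treated line lacking floxed alleles.

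Total counts ranged from 19915222 to 37158661 per sample. Replicate 1 stood apart from replicates 2 and 3 in all 6 groups. In the wild-type groups it was the highest sample in all 4 groups for 21.4% of the genes tested and the lowest in all 4 for 18.4%. In Esrrb fl/fl cells the mean chi-square per gene was 15.6 and 14.0 between replicate 1 and the others, against 1.46 between replicates 2 and 3. After 4OHT these values were 12.8 and 11.8, against 2.22. The summed level of 6 ES cell markers lay between 2206 and 3163 CPM (counts scaled to a fixed total per library) in the wild-type samples and between 2778 and 3023 CPM in Esrrb fl/fl cells, but between 1769 and 1881 CPM after 4OHT. Over 5 mesoderm markers, the sum was 10.2 to 14.7 CPM in DMSO and 441 to 673 CPM in CH, with 53.2 to 76.8 CPM in Esrrb fl/fl cells and 337 to 490 CPM after 4OHT. The 6 trophoblast markers summed to 21.4 to 30.6 CPM in DMSO and 49.6 to 95.9 CPM in CH, and to 27.5 to 37.2 CPM in Esrrb fl/fl cells and 39.8 to 50.7 CPM after 4OHT. In CH most of this sum was Cdx2, with 91.9, 54.1 and 45.4 CPM against at most 0.154 CPM in DMSO. Of the other trophoblast markers tested there, Eomes was called lower in CH, by 2.08 on the log2 scale, and Krt7 had -3.63 without a call. For 7 primitive endoderm markers the sum was 9.05 to 10.6 CPM in DMSO, 3.32 to 4.26 CPM in CH, 2.15 to 3.61 CPM in Esrrb fl/fl cells and 5.65 to 7.99 CPM after 4OHT. The 6 fibroblast markers summed to 16.9 to 50.4 CPM in DMSO and 5.52 to 7.75 CPM in CH. In Esrrb fl/fl cells they summed to 18.2 to 26.5 CPM, and after 4OHT to 9.20 to 12.0 CPM. Most of the sum in Esrrb fl/fl cells was Thy1, with 17.9, 24.4 and 25.7 CPM, against 3.60, 7.99 and 7.17 CPM after 4OHT. Thy1 was called lower after 4OHT, with a log2 fold change of -1.85, whereas Col1a2 and Dcn were called higher, with 3.68 and 4.47. Of the mesoderm markers tested, 2 were called higher in CH, T by 10.2 and Mixl1 by 4.27 on the log2 scale. Eomes, also on this list, was the 1 called lower, and Tbx6 had 0.17 without a call. T is also a Wnt target gene. Of the primitive endoderm markers, 1 was called higher and 2 lower in CH. The part of these cell type markers in the results was not tested. Esrrb itself had 2680, 2146 and 2109 counts in the Esrrb fl/fl samples and 1211, 1333 and 1250 after 4OHT, over all its exons and so also those that the deletion may leave in place. In bulk samples fewer cells of a type and less RNA per cell cannot be told apart.

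The promoters of 4 members are shown because these members rose in CH and fell after Esrrb deletion in the tests below. Each is the RefSeq window on GRCm38.p6 from 250 bases before to 50 bases after the start of transcription, printed 5′ to 3′ on the strand of the gene. Capitals mark any match to the Esrrb element AAGGTCA, the TCF/LEF motifs CTTTGAT and CTTTGAA, the octamer ATGCAAAT or the SOX motif CATTGT on either strand. The windows lie at chr10:84553289-84553588 on the minus strand for Platr7, chr2:71719167-71719466 on the plus strand for Platr26, chr2:109913270-109913569 on the minus strand for Platr8 and chr2:135646273-135646572 on the plus strand for Platr3.
Platr7: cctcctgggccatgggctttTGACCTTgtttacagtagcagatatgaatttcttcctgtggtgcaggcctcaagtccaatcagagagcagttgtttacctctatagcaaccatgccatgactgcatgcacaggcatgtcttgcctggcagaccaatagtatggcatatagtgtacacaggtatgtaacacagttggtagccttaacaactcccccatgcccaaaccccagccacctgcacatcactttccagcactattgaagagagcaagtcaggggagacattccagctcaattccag
Platr26: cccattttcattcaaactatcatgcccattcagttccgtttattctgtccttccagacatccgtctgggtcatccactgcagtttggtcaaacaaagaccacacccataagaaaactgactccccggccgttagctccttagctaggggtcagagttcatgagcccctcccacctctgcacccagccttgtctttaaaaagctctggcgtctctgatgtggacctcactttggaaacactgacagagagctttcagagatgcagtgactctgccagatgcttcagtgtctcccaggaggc
Platr8: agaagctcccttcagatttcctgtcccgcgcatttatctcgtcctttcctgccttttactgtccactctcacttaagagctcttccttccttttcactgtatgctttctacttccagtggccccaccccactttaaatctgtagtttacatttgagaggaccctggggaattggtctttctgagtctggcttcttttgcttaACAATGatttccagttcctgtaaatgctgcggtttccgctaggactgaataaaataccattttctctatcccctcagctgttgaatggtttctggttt
Platr3: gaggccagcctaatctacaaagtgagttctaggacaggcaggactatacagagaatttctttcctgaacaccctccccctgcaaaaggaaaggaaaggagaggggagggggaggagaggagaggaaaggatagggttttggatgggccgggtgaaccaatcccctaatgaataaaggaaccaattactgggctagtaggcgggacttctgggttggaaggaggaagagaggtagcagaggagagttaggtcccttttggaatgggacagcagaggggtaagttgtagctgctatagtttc

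Of these 4 windows, that of Platr7 held the Esrrb element, in reverse orientation and 230 bases before the start, and that of Platr8 held the SOX motif in reverse orientation. No match was found in the windows of Platr26 and Platr3, and the RefSeq start of Platr3 lies 2384 bases from the one in GENCODE. Promoter windows were at hand for 12 members, 14 windows in all. The Esrrb element was in 1 of the 14, against 4.72% of all 32851 windows. A TCF/LEF motif was in 1, at Platr5, against 8.65%, and the octamer in 1, at Platr21, against 1.74%. The SOX motif was in 2, at Platr8 and Platr14, against 12.6% of all windows. A match of letters is a description and no evidence of binding.

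Platr13 and Platr15 share sequence. Over 277 aligned positions their transcripts were 94.9% identical on the same strand, with 12 mismatches and 2 bases without a partner, and the longest identical run was 53 bases. The stretch is bases 99 to 375 of the 375-base Platr13 transcript and bases 192 to 466 of the 768-base Platr15 transcript in GENCODE M21. Capitals mark the bases that differ.
Platr13: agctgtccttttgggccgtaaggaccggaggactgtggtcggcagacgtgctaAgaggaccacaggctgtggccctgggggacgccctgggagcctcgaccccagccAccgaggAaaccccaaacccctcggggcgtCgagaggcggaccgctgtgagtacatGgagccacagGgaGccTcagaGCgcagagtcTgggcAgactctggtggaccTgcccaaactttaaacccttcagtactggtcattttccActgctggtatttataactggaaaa
Platr15: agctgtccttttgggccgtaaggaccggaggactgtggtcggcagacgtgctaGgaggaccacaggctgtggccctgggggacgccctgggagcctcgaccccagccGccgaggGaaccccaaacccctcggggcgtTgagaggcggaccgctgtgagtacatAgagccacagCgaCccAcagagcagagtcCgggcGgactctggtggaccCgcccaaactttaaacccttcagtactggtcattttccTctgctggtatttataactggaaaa

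Reads were counted without regard to strand although the library kit keeps it, so overlapping genes cannot be told apart by direction. Exons of 3 members overlap those of another gene. For Platr16, 43.6% of the exon bases also belong to the pseudogene Gm13230 on the same strand. Platr9 overlaps Cga, the α-subunit of glycoprotein hormones, on the opposite strand over 12.8% of its exon bases, and Platr31 overlaps Tigar, a fructose bisphosphatase, over 8.32%. All exons of Platr12 lie within Gpr1 on the opposite strand and those of Platr32 within Alpk3 on the same strand, without overlap of exons, and 44.9% of the exon bases of Platr29 lie within the span of Gm11464. Matches to other genes, of 75 bases or longer and at least 95% identical, covered 100% of the Platr2 transcript, 53.2% of Platr16, 50.9% of Platr13, 47.6% of Platr17 and 37.0% of Platr15. The 5 members that responded to both CH and Esrrb deletion had no such match.

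The members spanned a wide range of levels, and Platr10 was the most abundant (the heatmap of all samples). Per kilobase of exon, the mean level of Platr10 was 61.3 RPKM in DMSO and 67.8 RPKM in CH, and that of Platr14 22.6 and 54.9 RPKM. Platr15 and Platr13 had 7.57 and 4.53 RPKM in DMSO and reached 63.1 and 58.6 RPKM in CH. Thus in CH the means of Platr10, Platr15, Platr13 and Platr14 came close to one another, whereas in DMSO that of Platr10 was the highest by far. Platr3 had 67.8 RPKM in Esrrb fl/fl cells, whereas Platr26 and Platr8 stayed at or below 2.98 RPKM in every group mean. Other members were lower still, such as Platr28 with at most 0.760 RPKM. Summed over the 29 members, the level was 206 ± 20 CPM in DMSO, 361 ± 6.8 CPM in CH, 386 ± 8.9 CPM in 2i and 225 ± 25 CPM in Fgf2/Activin (SD, n = 3). It was 414 ± 5.1 CPM in Esrrb fl/fl cells and 265 ± 12 CPM after 4OHT. Platr10 alone made up 32.8% to 60.2% of these sums.

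**Figure D1:**
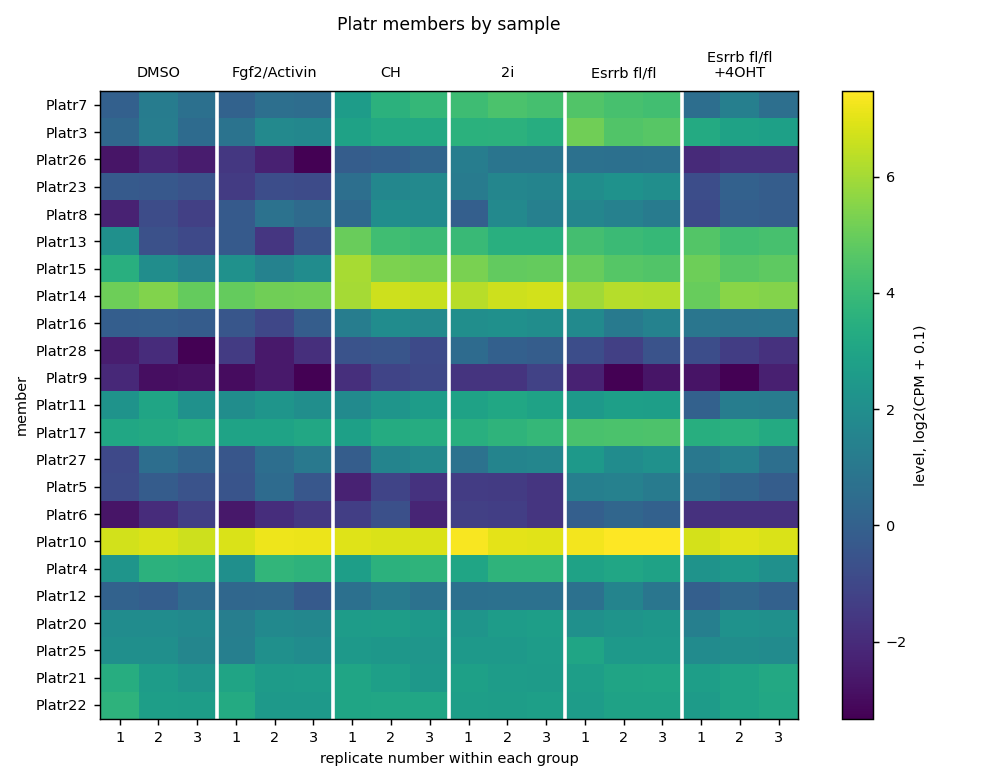
Level of the 23 members that passed the filter on low counts in at least 1 fit, as log2(CPM + 0.1), in rows, for the 18 samples in columns, grouped by condition with the replicate number below. Platr10 is bright in every column, whereas Platr7, Platr3, Platr26, Platr23 and Platr8 are darker in DMSO than in CH and darker in Esrrb fl/fl +4OHT than in Esrrb fl/fl.

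Differences were tested over all genes with edgeR's quasi-likelihood test, with p-values adjusted after Benjamini and Hochberg. Called genes are those with an adjusted p below 0.01 and more than 1 in absolute log2 fold change. In the fit of the wild-type cultures 22 of the 29 members passed the filter on low counts, among 16413 genes, and in that of the Esrrb fl/fl cells 21, among 14893 genes. A member that is low in most groups could pass through the group where it is high, so the counts below describe the members tested and are no test of the set. Platr1, Platr2, Platr19, Platr29, Platr31 and Platr32 passed in neither fit and had 14 to 105 counts in all. Their highest count in any sample was 11.

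The comparison of CH with DMSO asks what GSK3 inhibition alone does. Platr7, Platr3, Platr26, Platr23, Platr8, Platr13, Platr15, Platr14, Platr16 and Platr28 rose in CH, by 1.28 to 3.65 on the log2 scale, and no tested member was called lower. These were 10 of 22 tested members, where 7.51% of all genes tested were called higher and 10.2% lower. Of the 1146 annotated noncoding genes tested, 13.2% were called higher. Without the filter on low counts the same number, 10, was called. The median log2 fold change was 1.29 over the members tested and -0.00 over all genes. In 14 members all CH samples lay above all DMSO samples, and in 1 below, against 24.5% and 25.2% of all genes.

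Platr7, a 4-exon noncoding gene at chr10:84547417-84553338 on the minus strand, had 0.881, 2.19 and 1.47 CPM in the DMSO samples and 6.16, 12.0 and 14.6 CPM in the CH samples. Every CH sample exceeded every DMSO sample, and the lowest CH value was that of replicate 1. The log2 fold change was 2.85 ± 0.36 (SE, edgeR adjusted p = 0.000104). Platr3, at chr2:135648907-135652063 on the plus strand, had 1.12, 2.25 and 1.27 CPM in DMSO and 7.42, 9.12 and 9.12 CPM in CH. The groups were well separated, with a log2 fold change of 2.46 ± 0.31 (SE, edgeR adjusted p = 8.5e-05).

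Platr26, at chr2:71719417-71730966 on the plus strand, was near the limit of detection in DMSO, with 2, 4 and 2 counts, and had 24, 27 and 26 counts in CH. All CH samples lay above all DMSO samples, and with so few counts in DMSO the fitted log2 fold change of 3.37 ± 0.59 (SE, edgeR adjusted p = 0.000938) is uncertain in size. Platr23, at chr1:136622098-136624650 on the minus strand, had 0.721, 0.689 and 0.579 CPM in DMSO and 1.43, 3.11 and 3.32 CPM in CH. This was a log2 fold change of 1.97 ± 0.34 (SE, edgeR adjusted p = 0.000781), with replicate 1 the lowest of the CH samples. Platr8, at chr2:109902396-109913319 on the minus strand, had 0.107, 0.469 and 0.309 CPM in DMSO and 1.19, 3.79 and 3.64 CPM in CH, again lowest in replicate 1 of each group. The log2 fold change was 3.29 ± 0.66 (SE, edgeR adjusted p = 0.0022).

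Platr13, at chr11:41218837-41221096 on the plus strand, had 4.14 CPM in replicate 1 of DMSO but 0.532 and 0.424 CPM in the others, and 31.6, 18 and 16.3 CPM in CH. Replicate 1 was the highest sample of both groups. The log2 fold change was 3.65 ± 0.71 (SE, edgeR adjusted p = 0.00176), and 5.15 in a fit without replicate 1 of every wild-type group. Its relative Platr15, at chr2:150704536-150706876 on the minus strand, behaved alike in the order of samples, with 11, 3.85 and 2.62 CPM in DMSO and 66.6, 40.7 and 38.0 CPM in CH. The groups of Platr15 did not overlap, and its log2 fold change was 3.04 ± 0.45 (SE, edgeR adjusted p = 0.000302). Multiply mapping reads were not counted, and how far the shared stretch printed above affected either count was not tested. Nanog, a factor of naive pluripotency, had 67.9 CPM in replicate 1 of DMSO and 5.92 and 2.78 CPM in the others, in the same order, and the part of this sample difference in the Platr13 and Platr15 values was not tested.

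Platr14, at chr2:104559163-104571429 on the plus strand, was already abundant in DMSO, with 34.2, 42.6 and 30.4 CPM, and had 64.5, 101 and 94.7 CPM in CH. The groups did not overlap and the log2 fold change was 1.28 ± 0.18 (SE, edgeR adjusted p = 0.000211). Platr16, at chr4:145410245-145449756 on the plus strand, had 0.827, 0.876 and 0.771 CPM in DMSO and 2.28, 3.73 and 3.28 CPM in CH, a log2 fold change of 1.90 ± 0.26 (SE, edgeR adjusted p = 0.000179). Gm13230, which shares exons with Platr16, was also called higher, by 1.58 on the log2 scale. The paper names no HTSeq option other than that on strand, and how reads in the shared exons were counted was not tested. Platr28, at chr7:107243022-107300396 on the plus strand, had 3, 5 and 0 counts in DMSO and 17, 19 and 11 counts in CH. Its log2 fold change of 2.67 ± 0.61 (SE, edgeR adjusted p = 0.00487) lost the call in 5 of 14 alternatives, among them without CH replicate 1, CH replicate 2 or DMSO replicate 1 (adjusted p = 0.0113 to 0.0172).

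**Figure D2:**
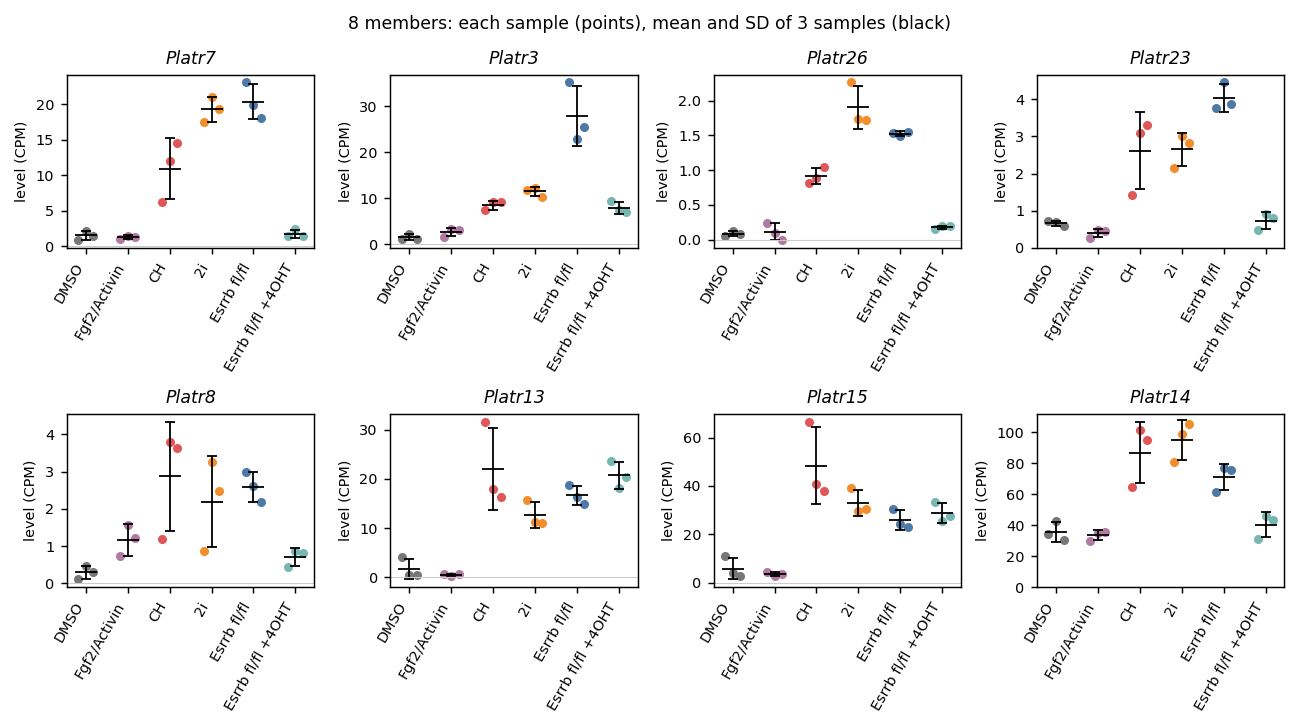
Level in CPM of 8 members in each sample (coloured points, replicates 1 to 3 from left to right) with the mean and SD of the 3 samples of a group (black). The CH points lie above the DMSO points in all 8 panels, and the Esrrb fl/fl +4OHT points lie below the Esrrb fl/fl points for Platr7, Platr3, Platr26, Platr23, Platr8 and Platr14 but not for Platr13 and Platr15.

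Other members moved little or not beyond the threshold. Platr10, at chr3:75647446-75655731 on the minus strand, had 106, 116 and 99.1 CPM in DMSO and 124, 115 and 116 CPM in CH, which overlap, with a log2 fold change of 0.15 ± 0.12 (SE, edgeR adjusted p = 0.343). Platr20 was past the p-value threshold with a log2 fold change of 0.73, too small to be called. It had 3.68, 3.72 and 3.39 CPM in DMSO and 6.23, 6.28 and 5.44 CPM in CH. Platr4, Platr11, Platr17, Platr21 and Platr22 had log2 fold changes between -0.21 and 0.18. Platr4, for example, had 4.88, 12.0 and 11.1 CPM in DMSO and 6.61, 12.2 and 13.0 CPM in CH, so that replicate 1 was lowest in each group and the replicates differed more than the conditions.

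Platr21 had 10.5, 6.13 and 4.86 CPM in DMSO and 8.14, 6.77 and 5.32 CPM in CH, and Platr22 had 12.5, 6.45 and 6.33 CPM in DMSO and 8.04, 8.27 and 8.36 CPM in CH. The values of each overlap between the groups. Platr25 had a log2 fold change of 0.49 (edgeR adjusted p = 0.0736), with 4.00, 4.01 and 2.97 CPM in DMSO and 5.38, 5.13 and 4.96 CPM in CH. Platr12 had 0.74 (adjusted p = 0.0349) and Platr9 2.03 (adjusted p = 0.0224), the latter on 1 to 5 counts in DMSO and 5 to 11 counts in CH.

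The calls of Platr5 and Platr27 depended on the pairing of samples by replicate number. Platr5, at chr1:88754890-88755736 on the plus strand, went the other way from most members, with 0.454, 0.782 and 0.579 CPM in DMSO and 0.102, 0.360 and 0.200 CPM in CH. Its log2 fold change of -1.42 was not called (edgeR adjusted p = 0.0266), but in a fit blocked by replicate number the value was -1.46 and called (adjusted p = 0.00384). Platr27, at chr2:157595583-157597320 on the minus strand, had 0.427, 1.38 and 1.00 CPM in DMSO and 0.817, 2.78 and 3.28 CPM in CH. The groups overlap because replicate 1 is the lowest sample of each, and the log2 fold change of 1.30 (adjusted p = 0.0954) became 1.23 with the block, where it was called (adjusted p = 0.0016).

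The addition of the MEK inhibitor was read from 2i against CH, which share CHIR99021, the CH samples being those already compared with DMSO. No tested member was called in either direction with edgeR or with DESeq2, where 0.317% of all genes were called higher and 1.67% lower in 2i. At an unadjusted p under 0.05, 4 of the 22 members passed. All 2i samples lay above all CH samples in 9 members and below in 2, against 12.7% and 13.1% of all genes. Platr7 had 17.5, 21.0 and 19.4 CPM in 2i, each above the highest CH sample, with a log2 fold change of 0.82 ± 0.33 (SE, edgeR adjusted p = 0.183). Platr26 had 65, 59 and 55 counts in 2i, also above each CH sample, and a log2 fold change of 1.06 ± 0.44 (SE, edgeR adjusted p = 0.2).

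Of the other members with a p under 0.05, Platr11 had 3.51, 4.87 and 6.12 CPM in CH and 7.31, 8.52 and 7.34 CPM in 2i, and Platr17 had 6.91, 9.94 and 10.2 CPM in CH and 11.1, 13.0 and 14.6 CPM in 2i. In both the groups did not overlap. Platr13 and Platr15 had lower means in 2i, with 15.7, 11.3 and 11.1 CPM for Platr13 and 39.3, 29.5 and 30.3 CPM for Platr15, and their log2 fold changes of -0.79 ± 0.63 and -0.55 ± 0.41 (SE) were not called (edgeR adjusted p = 0.58 and 0.549). Each 2i sample of Platr13 lay below each CH sample, while the groups of Platr15 overlap. With the replicate block the values were -0.73 and -0.51 (edgeR adjusted p = 0.173 and 0.148). Without replicate 1 of every wild-type group they were -0.62 and -0.40 (adjusted p = 0.00184 and 0.00891), past the p-value threshold but too small to be called. Platr10 had 166, 131 and 127 CPM in 2i, Platr14 had 80.4, 98.9 and 105 CPM and Platr3 had 11.9, 12.3 and 10.4 CPM. For comparison, 3 of 6 listed targets of the ERK pathway were called lower in 2i than in CH.

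Fgf2 and Activin A, which drive ES cells towards an epiblast-like state, were compared with DMSO, again the samples used for CH. No tested member was called with edgeR or DESeq2, against 0.902% of all genes higher and 0.347% lower, and 4 members had an unadjusted p under 0.05. Platr8 had 0.722, 1.58 and 1.22 CPM in Fgf2/Activin, each above the highest DMSO sample, with a log2 fold change of 2.00 ± 0.67 (SE, edgeR adjusted p = 0.143). With the replicate block it was 2.04 and called (edgeR adjusted p = 0.00076). Without replicate 1 of every wild-type group it was 1.81 and called (adjusted p = 0.0011). Platr7 had 0.962, 1.45 and 1.36 CPM in Fgf2/Activin, within the range of DMSO, and Platr14 had 29.9, 35.1 and 35.6 CPM, overlapping DMSO. Platr3 had 1.62, 3.25 and 3.09 CPM and Platr10 had 117, 148 and 141 CPM, with log2 fold changes of 0.77 and 0.34 (adjusted p = 0.217 and 0.15). Platr13, with 0.722, 0.230 and 0.591 CPM, had a log2 fold change of -1.75 (adjusted p = 0.288) that hung on the high replicate 1 of DMSO.

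Between the 2 reference cultures, 2i and Fgf2/Activin, 10 members were called higher in 2i and 1 lower, against 9.13% and 14.4% of all genes. All samples lay above in 15 members and below in 1, against 31.1% and 32.0% of all genes. Of the 10, 9 had also risen in CH over DMSO, a comparison that shares no samples with this one, and the other was Platr9. These 9 were 9 of the 10 members called higher in CH. Over all genes, 882 were called higher in both comparisons, which is 71.5% of the 1233 called higher in CH and 58.9% of the 1498 called higher in 2i. Platr7 differed by 3.94 ± 0.38 on the log2 scale (SE, edgeR adjusted p = 8.4e-06) and Platr13 by 4.61 ± 0.79 (adjusted p = 0.000547). Platr15 had 4.24, 2.69 and 3.75 CPM in Fgf2/Activin and differed by 3.21 ± 0.46 (adjusted p = 0.00017). Platr16 had 3.90, 4.22 and 3.81 CPM in 2i and 0.632, 0.394 and 0.800 CPM in Fgf2/Activin, a log2 fold change of 2.70 ± 0.27 (adjusted p = 1.1e-05), and Gm13230 again moved with it, by 2.45.

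Platr23 had 2.16, 3.01 and 2.81 CPM in 2i and 0.271, 0.493 and 0.452 CPM in Fgf2/Activin, a log2 fold change of 2.71 (edgeR adjusted p = 8.4e-05), and Platr3, Platr26, Platr14 and Platr28 rose by 2.12, 3.98, 1.5 and 2.48. The call of Platr28 was lost without Fgf2/Activin replicate 2 or 3 (adjusted p = 0.0121 and 0.0113). Platr9 had 6, 7 and 11 counts in 2i and 1, 2 and 0 counts in Fgf2/Activin, so its call (adjusted p = 0.00788) rests on few reads and was lost in 9 of 13 alternatives, with adjusted p-values of 0.007 to 0.0428. Platr8, with 0.871, 3.24 and 2.47 CPM in 2i, overlapped Fgf2/Activin and was not called, at 0.91 on the log2 scale (adjusted p = 0.211). Platr5 was the member called lower, with 0.279, 0.265 and 0.219 CPM in 2i against 0.602, 1.25 and 0.660 CPM in Fgf2/Activin. Its log2 fold change was -1.70 ± 0.43 (SE, adjusted p = 0.00675), and it was no longer called when any 2i replicate or Fgf2/Activin replicate 2 or 3 was left out (adjusted p = 0.0109 to 0.0357).

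**Figure D3:**
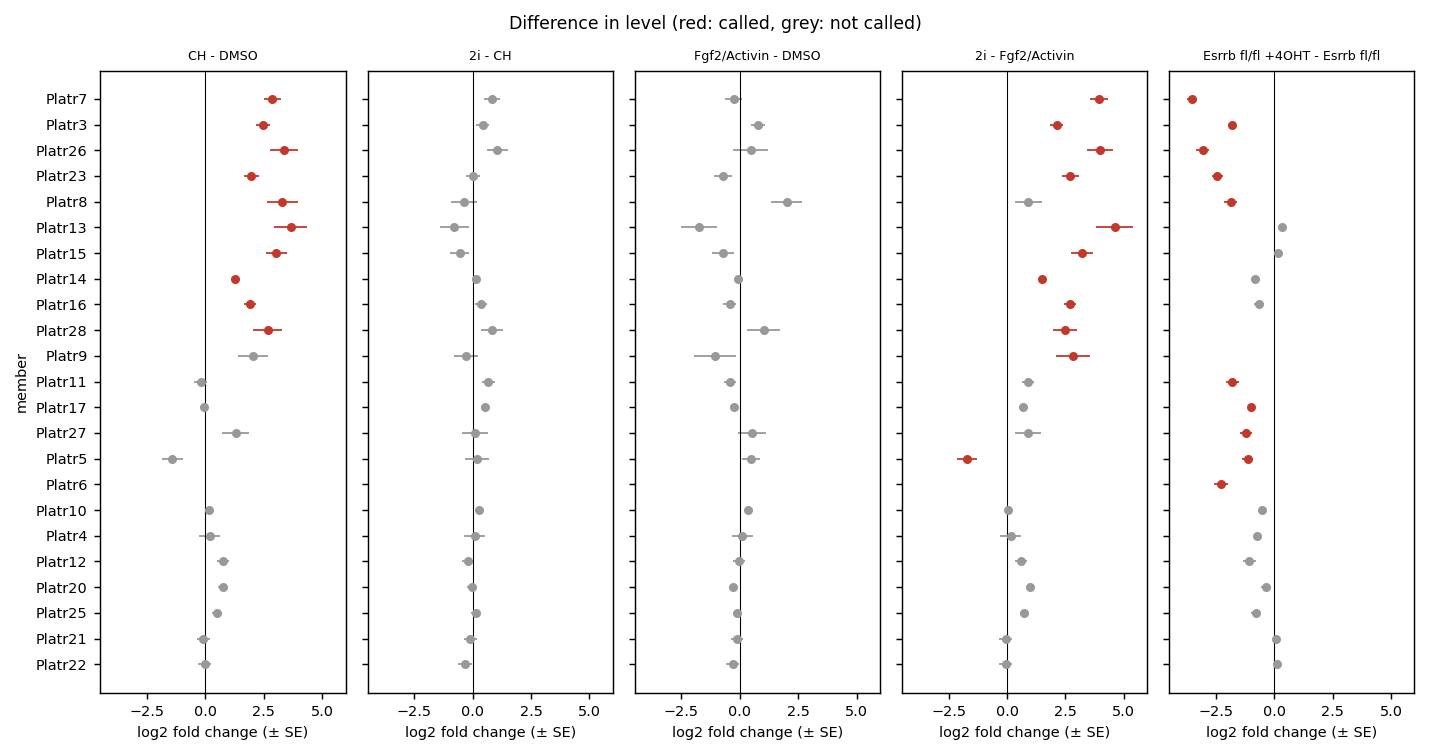
Log2 fold change with its SE (horizontal axes) of each member (vertical axis) in the 5 comparisons, red where called and grey where not. Red points lie to the right in CH against DMSO and, except for Platr5, in 2i against Fgf2/Activin, no red point is seen in the panels between them, and the red points on Esrrb deletion all lie to the left. A member without a point in a panel did not pass the filter on low counts there.

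Deletion of Esrrb was compared within CH, so GSK3 was inhibited in both groups. Platr7, Platr26, Platr23, Platr6, Platr8, Platr3, Platr11, Platr27, Platr5 and Platr17 fell after 4OHT, by 1.01 to 3.54 on the log2 scale, and no tested member was called higher. These were 10 of 21 tested members, where 3.87% of all genes tested were called lower and 12.8% higher, and where 8.76% of the 845 noncoding genes were called lower. Without the filter on low counts 11 members were called lower. The median log2 fold change was -1.01 over the members tested and 0.00 over all genes. In 16 members all 4OHT samples lay below all Esrrb fl/fl samples, against 31.5% of all genes, and in 0 above, against 34.4%. The 6 ES cell markers, whose summed level was also lower after 4OHT, had a median log2 fold change of -0.72, with 1 called lower and 0 higher, and their part in the fall of the members was not tested.

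Platr7 had 23.1, 19.9 and 18.1 CPM in Esrrb fl/fl cells and 1.41, 2.39 and 1.43 CPM after 4OHT. Its log2 fold change of -3.54 ± 0.20 (SE, edgeR adjusted p = 4.6e-06) was the most negative among the members tested. Platr26 had 29, 29 and 30 counts before and 3, 4 and 4 counts after deletion, a log2 fold change of -3.07 ± 0.28 (adjusted p = 3.6e-05). Platr23 had 3.77, 4.46 and 3.88 CPM in Esrrb fl/fl cells and 0.487, 0.909 and 0.813 CPM after 4OHT, a log2 fold change of -2.44 ± 0.24 (adjusted p = 5.1e-05). None of these groups overlapped.

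Platr8 had 2.98, 2.61 and 2.17 CPM in Esrrb fl/fl cells and 0.438, 0.861 and 0.813 CPM after 4OHT, with a log2 fold change of -1.87 ± 0.27 (SE, edgeR adjusted p = 0.000465). Platr3 had 35.2, 23.0 and 25.6 CPM before and 9.44, 7.42 and 6.98 CPM after, a log2 fold change of -1.81 ± 0.18 (adjusted p = 6.2e-05).

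Platr6, at chr10:21830499-21844851 on the minus strand, was at 2 to 16 counts in the wild-type samples and was tested here alone, with 16, 21 and 18 counts in Esrrb fl/fl cells and 4 counts in each sample after 4OHT. The log2 fold change of Platr6 was -2.27 ± 0.30 (SE, edgeR adjusted p = 0.000277). Platr11, at chr9:118404097-118406099 on the minus strand, had 5.58, 6.71 and 6.57 CPM before and 0.925, 2.30 and 2.15 CPM after deletion, a log2 fold change of -1.81 ± 0.28 (adjusted p = 0.000596). Platr11 was not called between CH and DMSO. Platr27 had 5.47, 3.69 and 4.35 CPM before and 1.90, 2.49 and 1.43 CPM after, a log2 fold change of -1.21 (adjusted p = 0.00241).

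Platr5 had 2.39, 2.56 and 2.12 CPM in Esrrb fl/fl cells and 1.36, 1.05 and 0.813 CPM after 4OHT, a log2 fold change of -1.13 (edgeR adjusted p = 0.00294). Platr17, at chr17:33905135-33906675 on the plus strand, had 20.6, 21.2 and 21.7 CPM before and 10.7, 11.3 and 9.52 CPM after, and its log2 fold change, -1.01 ± 0.10 (adjusted p = 4.5e-05), lies at the minimum for a call. Without 4OHT replicate 3, 7 members were called in place of 10: Platr5, Platr17 and Platr27 were lost, at log2 fold changes of -0.96, -0.94 and -1.03. Platr5 was also lost without 4OHT replicate 2 or Esrrb fl/fl replicate 2 (adjusted p = 0.0133 and 0.0137). Platr12, inside Gpr1, had a log2 fold change of -1.07 and missed the threshold (adjusted p = 0.0106), but passed it with the replicate block (-1.06, adjusted p = 0.0015). Gpr1 fell by 1.26 on the log2 scale, and the part of its unspliced RNA in the counts of Platr12 was not tested.

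Platr10 had 157, 173 and 177 CPM in Esrrb fl/fl cells and 111, 126 and 116 CPM after 4OHT, which do not overlap, and its log2 fold change of -0.52 ± 0.07 (SE, edgeR adjusted p = 0.0002) was past the p-value threshold but too small to be called. The same held for Platr14 with -0.82, Platr25 with -0.80 and Platr4 with -0.72. Platr14 had 61.2, 76.8 and 75.3 CPM before and 31.2, 46.1 and 43.5 CPM after, and Platr4 had 7.44, 8.20 and 7.45 CPM before and 4.53, 5.26 and 4.21 CPM after. Platr25 had 8.13, 5.38 and 5.69 CPM before and 3.60, 3.78 and 3.63 CPM after.

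Against these stood Platr13 and Platr15. Platr13 had 18.8, 16.3 and 14.9 CPM in Esrrb fl/fl cells and 23.6, 18.2 and 20.3 CPM after 4OHT, a log2 fold change of 0.31 ± 0.13 (SE, edgeR adjusted p = 0.0587). Platr15 had 30.7, 24.2 and 23.2 CPM before and 33.4, 25.4 and 27.5 CPM after, a log2 fold change of 0.14 ± 0.14 (adjusted p = 0.385). The groups of both overlap, but Platr13 was higher after 4OHT in all 3 pairs of the same number, and with the replicate block its log2 fold change of 0.31 passed the p-value threshold (adjusted p = 0.00579) and was too small to be called. Platr21 with 0.06 and Platr22 with 0.11 were not called (edgeR adjusted p = 0.769 and 0.596), with 6.48, 7.68 and 7.97 CPM before and 6.52, 7.51 and 8.99 CPM after for Platr21.

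Of the 10 members that rose in CH, 9 were tested on Esrrb deletion, and 5 of these, Platr7, Platr3, Platr26, Platr23 and Platr8, fell there. Likewise 9 of the 10 members that fell on Esrrb deletion were tested in the wild-type fit, and the same 5 had risen. Among the 14535 genes tested in both fits, 1100 were called higher in CH and 538 lower on Esrrb deletion, with 198 in both, or 18% of the first list and 36.8% of the second. Platr14, Platr16, Platr13 and Platr15 rose in CH without a call on Esrrb deletion, at log2 fold changes of -0.82, -0.65, 0.31 and 0.14 (edgeR adjusted p = 0.00131, 0.034, 0.0587 and 0.385). The comparisons were made in different lines, so the difference between the effects was not tested.

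**Figure D4:**
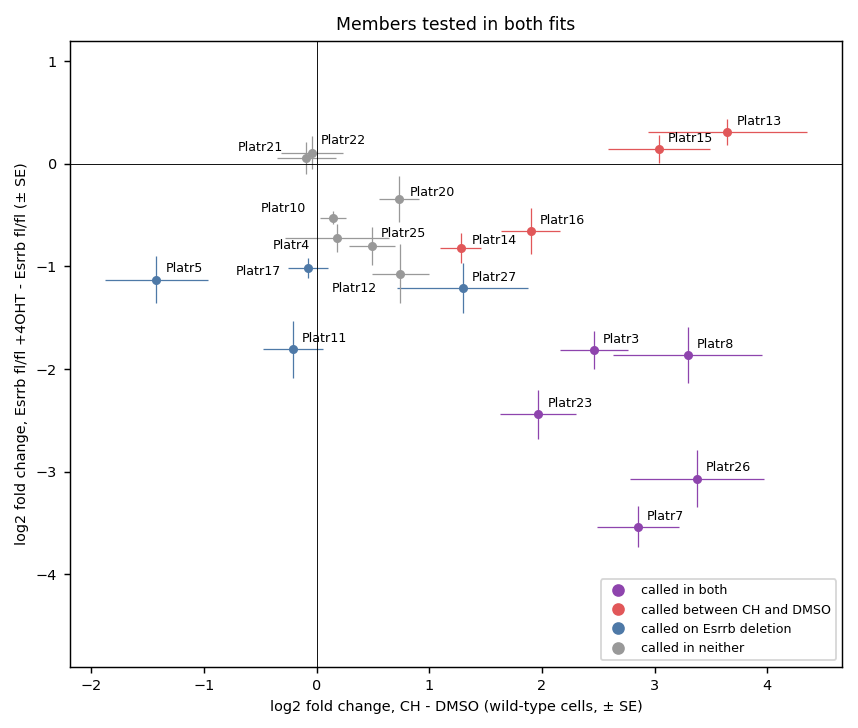
Log2 fold change of CH over DMSO in wild-type cells (horizontal axis) and of Esrrb fl/fl +4OHT over Esrrb fl/fl (vertical axis) for the 20 members tested in both fits, with SE bars. The 5 members called in both lie at the lower right, Platr13 and Platr15 lie at the right just above 0 on the vertical axis, and Platr5 is the member farthest to the left.

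Genes beside the members were read from the same fits, taking for each member the protein-coding gene with the nearest start. Plcb4, a phospholipase C whose start is 10.1 kb from that of Platr3, rose in CH by 1.59 on the log2 scale and had -0.69 on Esrrb deletion, which is below the minimum. Ckap4, 19.3 kb from Platr7, was not called in either, with 0.29 and 0.30, and so differed in its values from Platr7. Zfp281, a zinc finger factor whose start is only 251 bases from that of Platr23 on the opposite strand, had 0.06 in CH and -0.56 on Esrrb deletion and was called in neither.

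Lgr4, the receptor for R-spondins, lies 4.33 kb from Platr8 on the opposite strand. Its mean was 61.1 ± 8.2 CPM in DMSO, 91.3 ± 12 CPM in CH, 102 ± 2.4 CPM in 2i and 246 ± 7.7 CPM in Fgf2/Activin (SD, n = 3), and it was called higher in Fgf2/Activin, by 2.01 on the log2 scale. This was the comparison in which Platr8 had 2.00 without passing the test, whereas on Esrrb deletion Lgr4 had 0.26 and Platr8 fell by 1.87. Sgk1, a kinase 37.3 kb from Platr6, fell on Esrrb deletion by 1.83, the direction of Platr6 there. In CH it rose by 1.31, where Platr6 was not tested and its counts in CH and DMSO overlapped. Itga6, the integrin α6 subunit 26.2 kb from Platr26, fell on Esrrb deletion by 1.00 but had -0.83 in CH, where Platr26 rose.

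Arl4c, a small GTPase 52.7 kb from Platr5, had a mean of 178 ± 49 CPM in DMSO and 21.5 ± 6.9 CPM in CH (SD, n = 3), a log2 fold change of -3.04, and rose on Esrrb deletion by 1.31, where Platr5 fell. Eomes, a T-box factor 72.1 kb from Platr11, fell in CH by 2.08 and had -0.19 on Esrrb deletion while Platr11 had -0.21 in CH and fell on Esrrb deletion. Trap1a, 24.1 kb from Platr21, rose in CH by 2.51 while Platr21 had -0.09. Tigar, which shares exons with Platr31, rose by 1.18 in CH, at 138 CPM against at most 0.159 CPM for Platr31 in any sample. Cga, by contrast, had 6 counts in all samples together, and Platr9 had 66.

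**Figure D5:**
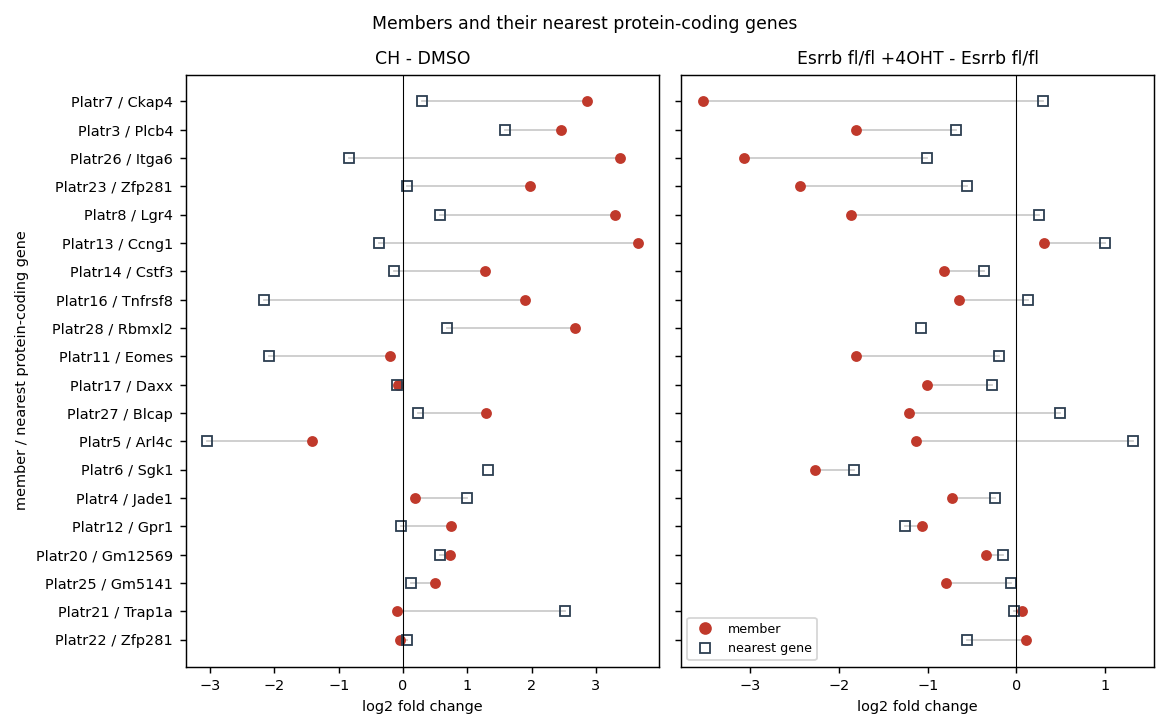
Log2 fold change (horizontal axes) of each member (red points) and of the protein-coding gene with the nearest start (open squares), joined by a line, for CH over DMSO on the left and Esrrb deletion on the right, with the 20 pairs in which member and nearest gene were each tested at least once. Long lines mark pairs whose values differ, such as Platr7 and Ckap4 in both panels and Platr5 and Arl4c on the right. A pair without a red point is one whose member was not tested.

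Lists of other genes of the pluripotency network are given for comparison. Of 15 listed naive pluripotency factors, 14 were called higher in CH and 0 lower, with a median log2 fold change of 3.71. On Esrrb deletion 6 were called lower, with a median of -0.99. The list includes Esrrb, the gene deleted, and that median is the value of Esrrb itself, which was not called. Of 8 listed formative and primed factors, 6 were called lower in CH and 2 lower and 1 higher on Esrrb deletion. Esrrb was higher by 4.37 in CH, with 363, 286 and 313 CPM against 30.2, 8.98 and 6.87 CPM in DMSO. Of 11 other long noncoding RNAs of ES cells that were tested, 2 were called higher and 3 lower in CH, and 3 higher and 0 lower on Esrrb deletion, with medians of -0.67 and 0.26. Lncenc1, which RefSeq also lists as Platr18 and which is not a member by its symbol, rose in CH by 1.74 and had 0.14 on Esrrb deletion, values like those of Platr13 and Platr15 in direction.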

How the data were processed

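Poly(A) RNA of 18 samples was sequenced with a strand-keeping kit. The authors aligned reads to mm10 with TopHat2, counted them per Ensembl gene of GRCm38 with HTSeq ignoring strand, and deposited whole-number counts without normalisation. Multiply mapping reads are left out by such counting, so members with shared sequence may be undercounted. Samples were grouped by their labels. The 49671 genes were scaled by TMM, filtered with filterByExpr and tested with edgeR 4.0.16 (glmQLFit and glmQLFTest) in R 4.3.3, the 12 wild-type samples in 1 fit and the 6 Esrrb fl/fl samples in another, with Benjamini-Hochberg adjustment over all genes of a fit. The thresholds, 0.01 on the adjusted p-value and 1 on the absolute log2 fold change, follow the study's methods. SE is the log2 fold change divided by the square root of its F statistic. CPM used the TMM-scaled library sizes, and RPKM divided them by the union of exons. Depth limits members with few counts, and counting error alone is not the spread between samples.

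Positions, strands and overlaps came from GENCODE M21, which held 49412 of the identifiers. Shared sequence was searched with blastn 2.17.0. Promoter windows came from RefSeq. Figures were drawn with matplotlib 3.10.9. The script was tested on simulated data. The alternatives were DESeq2 1.42.0 (its test and its size factors), glmTreat of edgeR, other filters and fold limits, a fit of the compared samples, the replicate block and each replicate left out. A fit without replicate 1 of every group in the fit was added after seeing the data.

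Sample values cover members called in any comparison or with a mean of at least 5 CPM in any group. They are not printed for every group, and the other members are described by counts or fold changes. Overlapping genes were named, but not every nearest gene. Rbmxl2, nearest to Platr28, and Mycn, nearest to Platr19, were called lower on Esrrb deletion, at -1.08 and -2.18 on the log2 scale. A gene that is not mentioned may still have changed. The members and lists were chosen with earlier results of these data known. Replicate numbers come from the labels. Deviations from the group means correlated between same-numbered samples in every pair, at 0.39 or more across genes. Differently numbered samples reached 0.573 in CH against DMSO, above the lowest same-numbered value of 0.467. The same held for 2i against CH (0.744 and 0.700), 2i against Fgf2/Activin (0.482 and 0.420) and Esrrb deletion (0.447 and 0.390). It did not hold for Fgf2/Activin against DMSO (0.622 and 0.644). The replicate block takes the numbers as pairs, which these values do not show for every sample. Calls that need the block carry this limit, and the fit without it was kept as the study did.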

Additional observations from a re-analysis of the deposited data

How the results depend on the processing

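Over 31 calls of single members, 440 alternative values gave 0 reversed directions and 39 lost calls, most often for Platr9, Platr5, Platr28 and Platr17. Tested against a log2 fold change of 1 with glmTreat, 6 members were called higher in CH, 0 lower in 2i relative to Fgf2/Activin and 5 lower on Esrrb deletion. With at least 10 counts in every sample, which leaves 15 or 18 members to test, 5 were called higher in CH, 5 higher and 0 lower in 2i relative to Fgf2/Activin, and 6 lower on Esrrb deletion. Leaving out 1 replicate at a time gave 9 to 10 members higher in CH, 9 to 10 higher and 0 to 1 lower in 2i relative to Fgf2/Activin, and 7 to 11 lower on Esrrb deletion.

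With the replicate block, 11 members were called higher in CH and 1 lower (Platr5), 0 in 2i against CH, 1 higher in Fgf2/Activin than in DMSO (Platr8), 10 higher and 1 lower in 2i relative to Fgf2/Activin and 11 lower on Esrrb deletion. The block added Platr27, Platr5, Platr8 and Platr12 and changed no other call. Without replicate 1 of every group in a fit, 1 member, Platr8, was called higher in Fgf2/Activin than in DMSO. In these fits 12 members were called higher in CH and 11 lower on Esrrb deletion. The cause of these shifts was not tested. With 14 to 105 counts over 18 samples, 6 members were too low for a test.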

Other observations

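As over all genes, replicate 1 was the highest or the lowest sample of every wild-type group in some members. In all 4 wild-type groups replicate 1 was the highest sample for Platr13, Platr15 and Platr21, 3 of 22 members tested, and the lowest for Platr4, Platr7, Platr8 and Platr27, 4 of 22. Over all genes tested the shares were 21.4% and 18.4%. In the wild-type groups Platr4 had 4.88 CPM in replicate 1 of DMSO, 6.61 CPM in that of CH, 8.12 CPM in that of 2i and 4.00 CPM in that of Fgf2/Activin, where the other replicates had at least 11.1 CPM. Platr22 had 12.5 and 9.47 CPM in replicate 1 of DMSO and Fgf2/Activin and 8.04 and 6.62 CPM in replicate 1 of CH and 2i, with the other samples between 5.42 and 8.36 CPM.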
